A study of Prunus persica with 2 samples.

Results

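The most abundant transcripts of wounded peach (Prunus persica) fruit were taken as the rows of the deposited gene table whose mean over the libraries was 1000 FPKM or more. FPKM divides the fragments of a gene by its exon length and by the depth of its library, so levels of genes of different length can be compared. The rule gave 44 of 27806 rows, or 0.29% of the 15197 rows that reached 1 FPKM in at least 1 library. All 44 carry identifiers of annotated genes (Prupe numbers), and none (0) is a newly assembled locus, the highest of which had a mean of 823 FPKM. The 44 rows hold 42 distinct pairs of values, because 3 rows share 1 merged locus. Since the members were chosen by their level in these same libraries, their levels, ranks and shares are a description.

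There were 2 libraries, 1 per treatment, both from wound tissue sampled on day 3. The control wound had received 30 μL of sterilized water, and the treated wound 30 μL of a suspension of Pichia membranaefaciens. All fruit were kept at 28 °C and 95% relative humidity, so wounding and this storage are shared by both groups. The sources used here do not state the cultivar, the number of fruit behind each library or any pooling. Below, "with water" and "with the yeast" refer to these libraries. With 1 library per treatment there is no replicate error, and no test was made. In whole tissue, fewer cells of a type and less RNA per cell cannot be told apart.

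In fleshy fruit a small number of genes supply a large part of the messenger RNA, and proteins of ripening, cell wall loosening, water stress and defence are known to be among the abundant products. A wound in such fruit closes by deposition of phenolic polymers, lignin and suberin in the cells at its edge. Antagonistic yeasts such as P. membranaefaciens occupy the wound, compete with fungi for nutrients and space, and are studied for their effect on host defence. The files do not pair the identifiers with gene names or products, and none (0) of the members could be given a name from the reference table. The members are therefore described by identifier, position, gene structure and value, and markers of tissue or cell type could not be applied.

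The libraries were of like depth, with an estimated 25330746 fragments assigned to transcripts with water and 23987339 with the yeast. The estimate takes 300 bases of coverage as 1 fragment, which was the most frequent value among barely covered transcripts in each library. Members rested on 7287 to 651180 fragments per library. The 95% counting interval of a member's ratio between the libraries spanned at most a factor of 1.06 from end to end. Counting error was therefore small beside most differences given below, whereas the difference between fruit of 1 treatment is unknown.

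The 44 rows held 23.7% of the FPKM total with water and 25.2% with the yeast. With the shared values of the merged locus taken once, the shares were 23.4% and 24.8%. By annotated transcripts alone, 43 genes had a mean of 1000 FPKM or more, and held 25.2% and 25.5% of the annotated transcript total. The single most abundant row held 3.42% with water and 3.87% with the yeast, and the 4 most abundant held 9.75% and 11.5%. It took 498 rows to make up 50% of all FPKM with water and 483 with the yeast. The additional share in the treated wound was reached within the 5 most abundant rows, which held 10.9% and 12.8%, and over the first 1000 rows the shares were 60.9% and 60.8%.

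**Figure D1:**
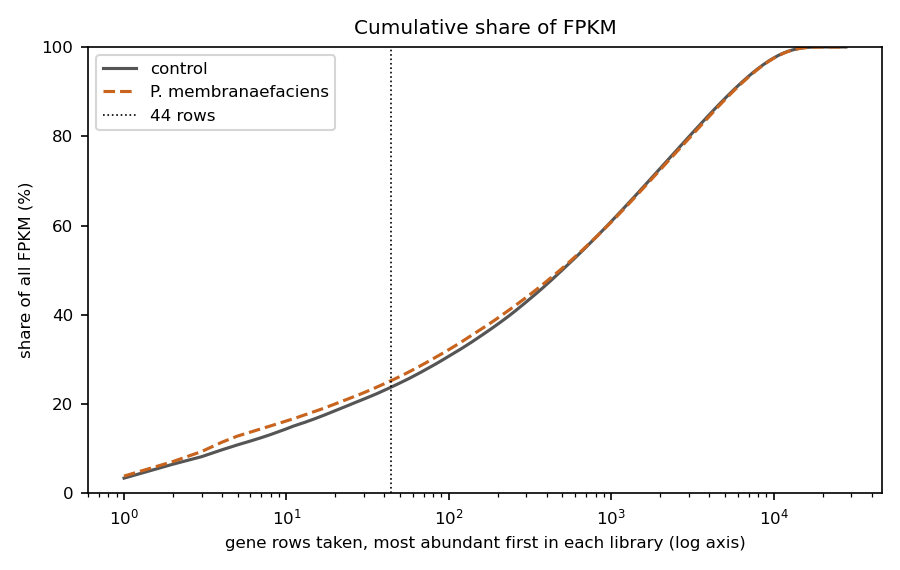
Share of all FPKM (vertical axis, percent) held by the most abundant gene rows, counted from the top in each library (horizontal axis, log scale); the solid line is the control library, the dashed line the treated one, and the dotted line marks 44 rows. The treated line lies slightly above the control line among the first rows, at 25.2% against 23.8% for the 44 top rows of each library, and the lines meet near 1000 rows.

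A pair of genes stood apart at the top. Prupe.6G077900, on Pp06 (minus strand, 5302683 to 5303300), had 18018 FPKM with water and 22337 FPKM with the yeast. Its annotated transcript has 3 exons and only 225 bases. Prupe.4G009800, on Pp04 (minus strand, 483996 to 485511), had 19744 FPKM with water and 18811 FPKM with the yeast, from a transcript of 2 exons and 1231 bases. The order of the pair was thus exchanged between the libraries, Prupe.4G009800 being first with water and Prupe.6G077900 first in the treated wound.

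Below them came 4 genes with means above 5000 FPKM. Prupe.8G034100, with 2 exons on Pp08 (plus strand, 3169991 to 3171412), had 8858 FPKM with water and 12907 FPKM with the yeast. Prupe.3G209900, with 4 exons on Pp03 (minus strand, 21547735 to 21549448), had 9699 and 12038 FPKM. By these gene values 4 rows were above 10000 FPKM with the yeast, compared with 2 with water. The annotated transcripts of Prupe.3G209900 alone, however, summed to 7807 FPKM with water and 2349 FPKM with the yeast. Its direction and its place above 10000 FPKM thus hold only when newly assembled transcripts of its locus are counted. Over the whole locus, estimated fragments numbered 404587 with water and 470847 with the yeast. Prupe.1G128700, with 2 exons on Pp01 (plus strand, 10046006 to 10047060), had 4932 FPKM with water and 7998 FPKM with the yeast. In the other direction, the unspliced gene Prupe.6G310300 on Pp06 (minus strand, 27832401 to 27833216) had 6472 FPKM with water and 4283 FPKM with the yeast.

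A further 12 members had means from 2000 to 5000 FPKM. The highest of them was Prupe.1G356400, a gene of 2 exons on Pp01 from 33036333 to 33037734, with 4041 FPKM with water and 5077 FPKM with the yeast. Lower values in the treated wound were found for the next 3, which have 3 to 5 exons. Prupe.3G161500 on Pp03, 18052694 to 18053754, had 4386 and 3353 FPKM. Prupe.8G135300 on Pp08, 15574117 to 15576422, had 3897 and 3002 FPKM, and Prupe.2G263600 on Pp02, 27148381 to 27150400, had 3416 and 2645 FPKM. These 3 genes had nearly the same ratio between the libraries, 0.76, 0.77 and 0.77. Prupe.1G141000, a gene of 12 exons on Pp01 from 11093798 to 11097201 and the member with the most exons, went from rank 16 with 2200 FPKM with water to rank 8 with 3807 FPKM with the yeast.

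The remaining 26 members had means from 1000 to 2000 FPKM. In both libraries 37 members stood at 1000 FPKM or more, 4 did so only with water and 3 only with the yeast. The last members inside the threshold were Prupe.3G074800 (mean 1013 FPKM), Prupe.3G287000 (1006 FPKM) and Prupe.5G117500 (1004 FPKM). Just outside it were Prupe.1G372700 with a mean of 985 FPKM, Prupe.1G060900 with 957 FPKM and Prupe.3G239000 with 928 FPKM. Of the 44 rows, 42 were among the 44 most abundant rows of the control library and 42 among those of the treated library.

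**Figure D2:**
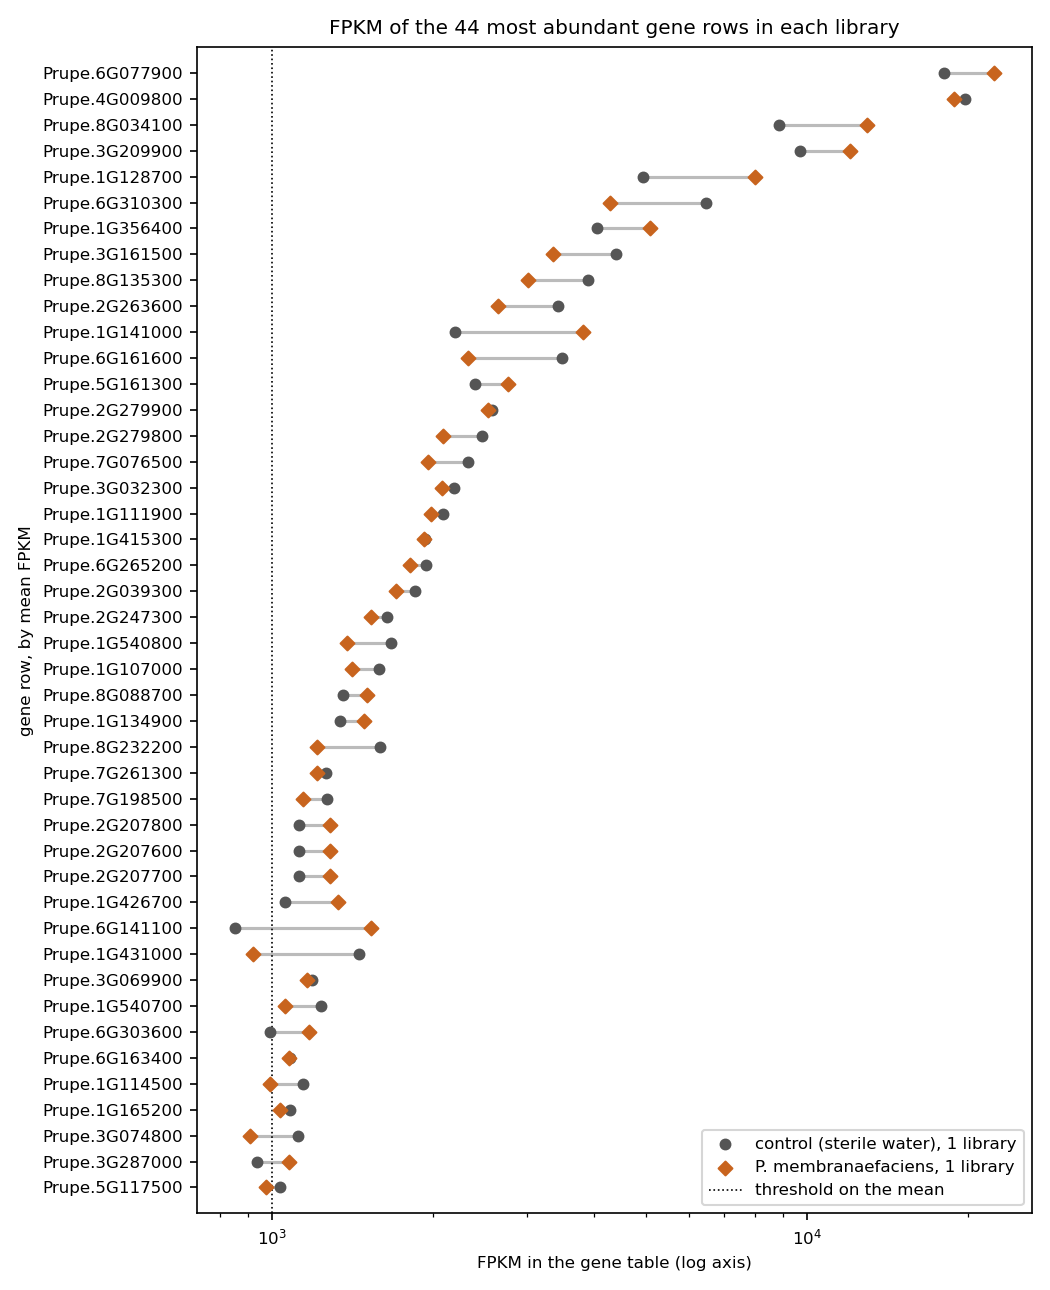
FPKM of each of the 44 members (horizontal axis, log scale) with water (circles) and with the yeast (diamonds), 1 library each, ordered from the highest mean at the top; the dotted line marks 1000 FPKM. Prupe.6G077900 and Prupe.4G009800 stand apart at the top, and the widest gaps between the symbols are those of Prupe.6G141100, Prupe.1G141000, Prupe.1G128700 and Prupe.1G431000.

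The members differed between the treatments about as much as other rows did. Taken as yeast minus water, the log2(FPKM + 1) difference reached 1 in size at none (0) of the 44 members, compared with 3.3% of all 15197 rows. The members' differences ran from -0.66 to 0.84, with a median of -0.06 beside 0.02 over all rows. A difference of 0.5 or more in size was seen at 7 members, or 15.9%, compared with 13.2% of all rows and 12.6% of the 882 rows with means from 100 to 1000 FPKM. The median size of the difference was 0.20 over members and 0.18 over all rows. Within 0.1 of no difference were 11 members, among them Prupe.4G009800 at -0.07.

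More members were lower than higher in the treated wound. Of the 44 rows, 16 (36.4%) were higher, compared with 53.3% of all rows, and 28 were lower, compared with 46.7%. With the merged locus taken once, 14 were higher and 28 lower. The same division was seen one step down in abundance, where 329 of 882 rows from 100 to 1000 FPKM (37.3%) were higher and the median difference was -0.09. The summed levels depended on how transcripts were counted, as 1 gene shows. The 14 higher distinct values summed to 57789 FPKM with water and 76293 FPKM with the yeast, and the 28 lower ones to 77090 and 66490 FPKM. Of the higher sum, Prupe.3G209900 had 9699 and 12038 FPKM, but its annotated transcripts alone went from 7807 to 2349 FPKM. With those taken among the lower values, the higher ones summed to 48091 and 64256 FPKM and the lower ones to 84897 and 68839 FPKM. That substitution leaves out the reads of the locus assigned to assembled transcripts, which had 2895 FPKM with water and 12014 FPKM with the yeast. It therefore does not show that the level of the gene fell.

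**Figure D3:**
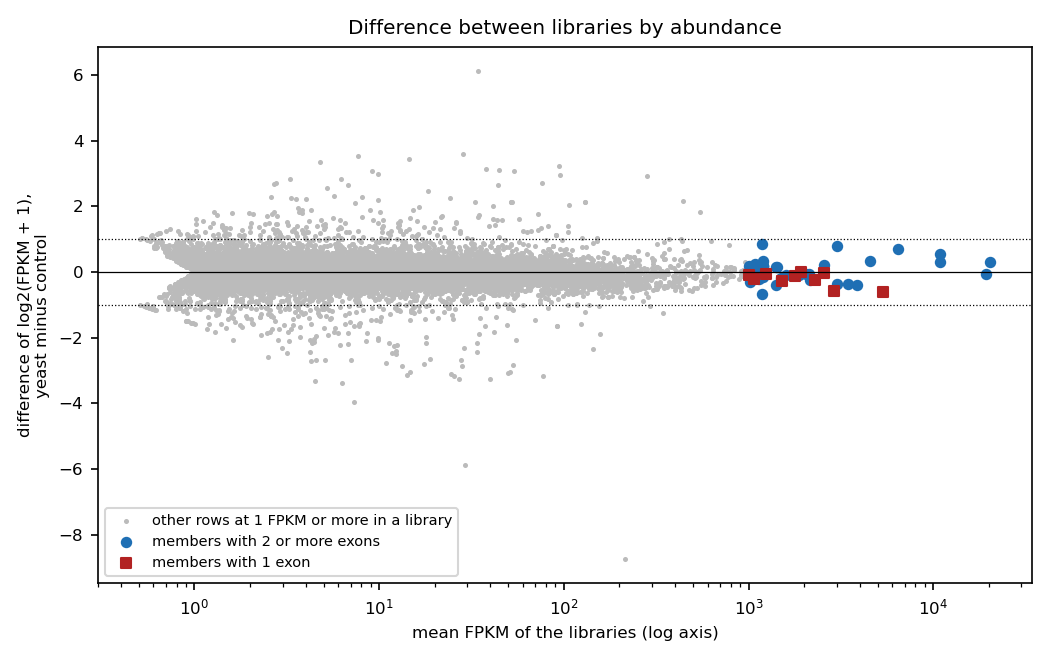
Difference of log2(FPKM + 1), treated minus control (vertical axis), against the mean FPKM of the libraries (horizontal axis, log scale) for all rows that reached 1 FPKM in a library (grey), spliced members (circles) and unspliced members (squares); the dotted lines mark differences of 1 and -1. Members lie between -0.66 and 0.84, and the 10 unspliced members all lie at or below 0.

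Within the set, the median size of the difference was 0.37 in the 10 members with the highest mean and 0.19 in the other 34, beside 0.18 over all rows. This division was chosen after the values were seen. Prupe.4G009800, at -0.07, differed little among the top 10, and the direction at Prupe.3G209900 turns when only its annotated transcripts are taken.

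The member with the largest upward difference was Prupe.6G141100, with 2 exons on Pp06 (plus strand, 11424762 to 11425857). It had 852 FPKM with water and 1527 FPKM with the yeast, a difference of 0.84 and a ratio of 1.79 (counting interval 1.76 to 1.82). It moved from rank 53 to rank 23, the largest move among members. Prupe.1G141000 followed at 0.79 and Prupe.1G128700 at 0.70, with ratios of 1.73 and 1.62. The fourth was Prupe.8G034100 at 0.54. The fifth, Prupe.1G426700, another gene of 2 exons on Pp01 from 36682517 to 36683790, had 1055 FPKM with water and 1329 FPKM with the yeast, a difference of 0.33. Of these 5 genes 4 have 2 exons, as do 11 of all 44 members. Of those 11, 7 were higher and 4 lower with the yeast, with 2 of the 7 being rows of the merged locus. The 5 were picked by their difference, and a link with exon number was not tested.

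At the lower end stood Prupe.1G431000, with 5 exons on Pp01 (minus strand, 36928351 to 36931636). It had 1452 FPKM with water and 921 FPKM with the yeast, a difference of -0.66 and a ratio of 0.63 (counting interval 0.627 to 0.642). The unspliced genes Prupe.6G310300 and Prupe.6G161600 came next at -0.60 and -0.59. Prupe.6G161600, on Pp06 (plus strand, 15035874 to 15036810), had 3480 FPKM with water and 2318 FPKM with the yeast. Prupe.8G232200, with 5 exons on Pp08 from 20644105 to 20646711, and Prupe.3G161500 both had a difference of -0.39. The counting interval of the ratio held 1 at only 2 members, Prupe.1G415300 with 1928 and 1925 FPKM and Prupe.6G163400 with 1077 and 1073 FPKM.

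The members were compact genes. For each gene, structure was read from its most abundant annotated transcript. This transcript had a median of 3 exons in the members, compared with 5 in the 14268 annotated genes that reached 1 FPKM in a library. A single exon was found in 10 members (22.7%), compared with 10.9% of those genes, and 2 to 3 exons in 18 (40.9%), compared with 24.6%. At least 10 exons were found in 1 member (2.27%), Prupe.1G141000, compared with 23.1%. The median transcript length was 1205 bases, ranging from 210 to 2099, against 1835 bases over all those genes. Among spliced members the median intron sequence per gene was 516 bases, compared with 1690 bases. FPKM divides by transcript length, so length is not independent of the rule, whereas exon number and intron sequence do not enter it directly.

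Compactness did not follow abundance in 1 direction over its whole range. The share of single-exon genes was 27.8% below a mean of 1 FPKM, 13.3% from 1 to 10, 7.70% from 10 to 100 and 9.39% from 100 to 1000 FPKM. Genes of 10 or more exons made up 10.4%, 20.1%, 28.0% and 13.5% of the same classes. Median transcript length was 1551, 1941, 1818 and 1310 bases in these classes. In the number of annotated transcripts the members were closer to other genes, 28 (63.6%) having 1 compared with 55.5%.

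**Figure D4:**
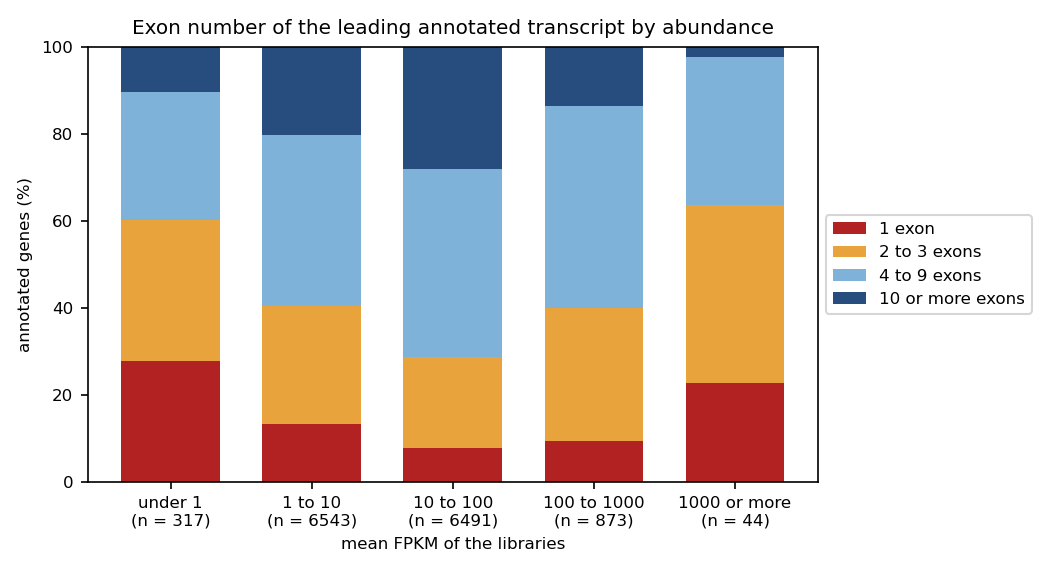
Share of annotated genes (vertical axis, percent) with 1, 2 to 3, 4 to 9 and 10 or more exons in 5 classes of mean FPKM (horizontal axis, number of genes in brackets). The members, in the class of 1000 FPKM or more, hold 22.7% single-exon genes and 2.27% genes of 10 or more exons.

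All 10 unspliced members were below their control value in the treated wound, and the spliced members were divided, with 16 higher and 18 lower. This grouping was chosen after the values were seen. The differences of the unspliced members ran down to -0.60, and their median was -0.16. At 1 of them, Prupe.1G415300, the difference of -0.003 was within counting error. Among unspliced genes with means from 100 to 1000 FPKM, 33 of 82 (40.2%) were higher and the median difference was -0.05. Spliced genes of that class were higher at 292 of 791 (36.9%), so the division by splicing was not seen there.

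Members lay on all 8 pseudomolecules. Pp01 held 13 (29.5%), compared with 23.0% of annotated genes that reached 1 FPKM, and Pp02 held 8 (18.2%), compared with 12.0%. Pp04 held 1 (2.27%), Prupe.4G009800, compared with 9.74%. The transcript tables name 50 sequences, of which 42 are scaffolds outside the pseudomolecules. None (0) of the names marks a plastid or mitochondrial genome, and whether the scaffolds or nuclear copies hold organelle sequence was not tested.

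Only a few members were close neighbours. Prupe.2G279800 and Prupe.2G279900 are single-exon genes of 1113 and 1133 bases on Pp02 that point toward each other, with 2094 bases between them. Prupe.2G279800, on the plus strand from 27940209 to 27941321, had 2470 FPKM with water and 2088 FPKM with the yeast. Prupe.2G279900, on the minus strand from 27943416 to 27944548, had 2576 and 2537 FPKM. They held ranks 14 and 15 by mean. If the genes of such a pair are near-identical copies they can share reads, which would leave their single values uncertain.

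On Pp01 Prupe.1G540700 and Prupe.1G540800 lie on the plus strand with 60 bases between them. Prupe.1G540800, from 44185134 to 44185343, is a single exon of 210 bases with 1665 FPKM with water and 1381 FPKM with the yeast. Its neighbour had 1234 and 1057 FPKM. Both were lower in the treated wound, at -0.27 and -0.22. The only other members within 50 kb of each other were the 3 of the merged locus on Pp02.

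Beside the members, neighbours of high level were few, but their levels were above those of annotated genes in general. For the 80 distinct nearest annotated neighbours that are no members, the median FPKM of their own annotated transcripts was 4.62, and 30 (37.5%) were under 1 FPKM. Over all 26811 annotated genes on the pseudomolecules the median was 0.80 and 51.6% were under 1 FPKM. At 100 FPKM or more were 5 neighbours (6.25%, compared with 3.38%). In 3 of these 5, the neighbour lay on the same strand with the same number of exons. Prupe.8G034200, with 2 exons, had 635 and 719 FPKM beside Prupe.8G034100. Prupe.6G077800, with 3 exons, had 202 and 280 FPKM beside Prupe.6G077900. Prupe.6G303700, with 3 exons, had 85.2 and 136 FPKM beside Prupe.6G303600, which had 991 and 1170 FPKM. These 3 neighbours were higher in the treated wound, as was the member beside each. The other 2, both of 8 exons, were lower, as were the members beside them. Prupe.4G009900 had 256 and 245 FPKM beside Prupe.4G009800, and Prupe.6G161500 had 235 and 201 FPKM beside Prupe.6G161600. Agreement in direction was not counted over the 80 neighbours, and it was not general. Prupe.4G009700, on the other side of Prupe.4G009800, was higher with the yeast, at 13.5 and 15.9 FPKM. Beside Prupe.3G161500, which was lower, Prupe.3G161600 was higher, at 26.2 and 28.3 FPKM.

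The value of some members depends on how transcripts were merged into loci. At all 44 members the gene value equalled the summed product of transcript FPKM and length over the locus, over a fixed whole length in bases that the libraries have in common (to within 0.05 bases, and 0.0001 in relative terms between libraries). This length is called the divisor below. In 24 members the locus has 1 transcript and the divisor is its length. The other 20 rows have several transcripts, in 18 loci, and the divisor can be much longer than the main transcript.

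The merged locus on Pp02 shows the widest departure. Prupe.2G207600, Prupe.2G207700 and Prupe.2G207800 were each listed with 1123 FPKM with water and 1284 FPKM with the yeast. Reads of the locus came almost wholly from the transcript of Prupe.2G207600, 2 exons and 1733 bases from 24134001 to 24135971, with 2186 and 2493 FPKM. The annotated transcript of Prupe.2G207700 had 3.00 and 3.35 FPKM, and that of Prupe.2G207800 had 0.258 and 0.150 FPKM. A newly assembled transcript of 7.93 kb reaches from Prupe.2G207600 into Prupe.2G207800, and another of 6.01 kb spans only Prupe.2G207600 and Prupe.2G207700. The divisor was 3605 bases. Prupe.2G207700 and Prupe.2G207800 are thus members through the merging alone, and the listed value of Prupe.2G207600 is below that of its own transcript.

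Prupe.7G076500 on Pp07, 11317929 to 11322425, was likewise listed at 2327 FPKM with water and 1955 FPKM with the yeast with a divisor of 3552 bases. Its leading transcript of 1831 bases had 4439 and 3133 FPKM. A newly assembled transcript spanning 47.7 kb and 7 other annotated genes had 40.0 FPKM with water and 587 FPKM with the yeast. At Prupe.1G540700 the annotated transcript had 153 FPKM with water and 12.1 FPKM with the yeast. There a newly assembled transcript of 1448 bases, spanning 65.7 kb and 7 other genes, had 1221 and 1176 FPKM. This gene is thus a member only with the assembled transcript counted. The divisor was 1629 bases, beside 1583 for the annotated transcript. If it is the pooled exon length, few bases of the assembled transcript lie outside annotated exons.

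The largest exchange between transcripts was at Prupe.3G209900, the fourth most abundant member. Its gene value was 9699 FPKM with water and 12038 FPKM with the yeast. In the control the annotated transcripts of 4 and 3 exons had 4981 and 2827 FPKM, and a new transcript of 5 exons spanning 31.0 kb had 2895 FPKM. In the treated library these had 2165, 184 and 0 FPKM. A different new transcript of 5 exons spanning 19.2 kb, listed at 0 with water, had 12014 FPKM there and made up 83.6% of the transcript FPKM of the locus. The annotated transcripts alone summed to 7807 FPKM with water and 2349 FPKM with the yeast, which is a difference in the opposite direction to that of the gene value and past 1 in size. The 5 other annotated genes within the longer span reached at most 19.8 FPKM. The divisor of the locus was 1557 bases, beside 1479 bases for the annotated transcript of 3 exons. If the divisor is the pooled exon length of the locus, the new transcripts lie mostly in annotated exons. Estimated fragments of the whole locus, however divided among its transcripts, were 404587 with water and 470847 with the yeast. The fall of the annotated transcripts therefore depends on how reads were divided within the locus.

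Prupe.5G161300, with 5 annotated transcripts on Pp05 from 14188188 to 14190502, also had another leading transcript with the yeast. Its gene value was 2391 FPKM with water and 2755 FPKM with the yeast. The transcript of 1847 bases held 56.7% of the transcript FPKM with water and 0.146% with the yeast, with 1597 and 4.64 FPKM. The other 4, of 1806 to 1992 bases, were each higher with the yeast, where the transcript of 1987 bases led with 33.7%. These transcripts share most of their span, and how far such shares vary between libraries of 1 treatment is unknown.

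In most of the other loci the makeup was steady. The largest move of any transcript share was under 5 percentage points in 13 of the 18 loci, and the median over the 18 was 0.426 points. Besides the pair above, it was 15.0 points at Prupe.7G076500, 10.1 at Prupe.1G540700 and 8.48 at Prupe.1G141000. At Prupe.1G141000 the leading transcript of 12 exons went from 1921 to 3600 FPKM, and a shorter one of 11 exons had 403 and 351 FPKM. By these estimates the higher gene value lay in the leading transcript. How reads were divided between these overlapping transcripts was not tested.

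**Figure D5:**
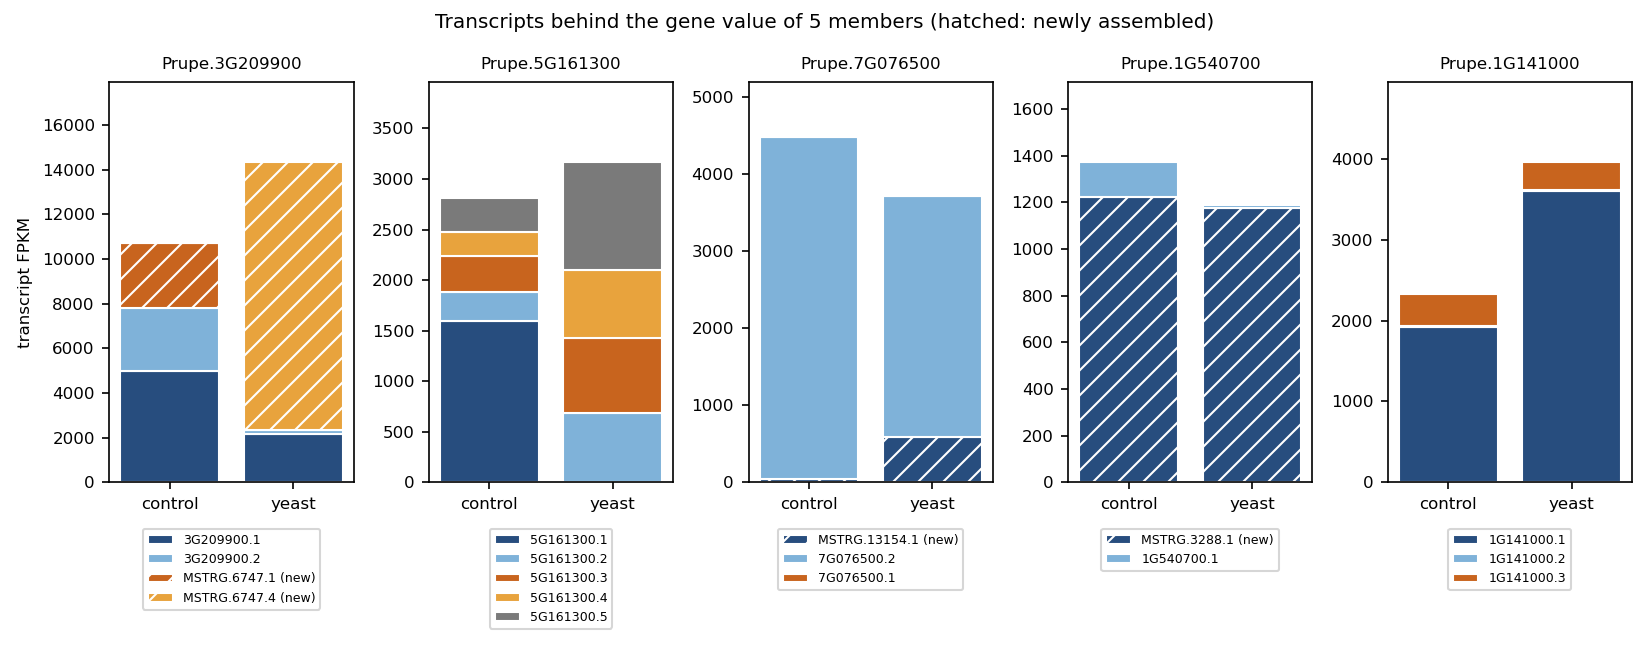
Transcript FPKM (vertical axis, linear, a separate scale per panel) stacked for the transcripts that enter the gene value of 5 members, with water and with the yeast; hatched parts are newly assembled transcripts. At Prupe.3G209900 a new transcript with 12014 FPKM takes the place of the annotated ones with the yeast, and at Prupe.5G161300 the transcript leading with water has 4.64 FPKM with the yeast.

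Newly assembled transcripts on the opposite strand carried the identifiers of 6 members, each transcript at no more than 1.30% of the member's level. Opposite Prupe.8G034100 there was a transcript of 3 exons with 6.50 FPKM with water and 9.45 FPKM with the yeast, or 0.0734% and 0.0732% of the member. Opposite Prupe.6G161600 a transcript of 2 exons had 4.05 and 2.62 FPKM, or 0.117% and 0.113%. At these 2 members the opposite transcript kept a nearly constant share while the member was higher in one case and lower in the other. At the other 4 the share differed between libraries. Opposite Prupe.3G209900 a transcript of 3 exons had 126 FPKM with water and 36.7 FPKM with the yeast, or 1.30% and 0.305% of the member. The gene row of that opposite locus, MSTRG.6748, had 139 and 43.5 FPKM. At Prupe.1G128700 the opposite transcript was listed at 0 with water and had 68.2 FPKM with the yeast, or 0.852% of the member. The other 2 were under 4 FPKM in both libraries. Of these, the transcript assigned to Prupe.2G207700 has 2 exons and 204 bases and runs from 24135116 to 24141713. Its ends thus lie within Prupe.2G207600 and Prupe.2G207800, and only its intron crosses Prupe.2G207700. No source used here states whether the libraries kept strand, so reads of such a pair may not have been separated.

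Ranking by fragments instead of FPKM changed the order, because long transcripts then count for more. Of the 42 loci, 32 were among the 42 with most fragments, and together the 42 held 16.8% of assigned fragments with water and 17.2% with the yeast. Prupe.4G009800 was first, with about 651180 and 581728 fragments. Prupe.6G077900, with its transcript of 225 bases, was 9th, with 108621 and 126257. Prupe.1G540800, with 210 bases, went from 23rd by FPKM to 391st by fragments, with 9368 and 7287. Both transcripts are shorter than the 300 bases taken as 1 fragment, which leaves the scaling of their FPKM by length uncertain.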

How the data were processed

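Values were used as deposited. The authors' gene table gives FPKM for each gene, and their transcript tables give FPKM and coverage (mean reads per base of each transcript), per the file headers. The submitters' processing notes list HISAT2 and HTSeq 0.6.1 without saying what each did. The sources used here do not state the build, annotation or assembler, and positions are those of the transcript tables. Each library's group was taken from its treatment label.

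Computed here with Python 3.11.15, pandas 2.3.3 and scipy 1.17.1 were members (mean of 1000 FPKM or more), shares, differences of log2(FPKM + 1) for rows at 1 FPKM or more in at least 1 library, transcript shares, and fragments (coverage times length, divided by 300). Intervals of ratios are exact (Clopper-Pearson, 95%) and cover counting error only. The rules were tested on simulated data that held counting error only. Merged loci, division of reads among transcripts and differences between fruit were not simulated. The text names the 10 highest members, the 5 largest and 5 smallest differences, rows at the threshold, members opposite another transcript or within 50 kb of another member. Further members were named after their values were seen. Members, lists and rules were chosen with earlier results of these data known. Gene lists by product word, and green tissue markers among them, could not be applied without product names.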

Additional observations from a re-analysis of the deposited data

How the results depend on the processing

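No paired analysis was possible because there is a single library per treatment, so none could be left out either. The count of 0 members past a difference of 1 stayed at 0 under both other pseudocounts, the 3 rescalings, transcript sums, annotated identifiers only, 1000 FPKM in both libraries and a mean of 2000 FPKM. Most of these could not have changed it. The pseudocounts and rescalings move values of this level too little. Annotated identifiers gave the same rows, and the stricter cuts gave only subsets of them. The count was 7 at a difference of 0.5, 1 of 113 rows at a mean of 500 FPKM, and 1 of 43 with annotated transcripts only. That last alternative was chosen after seeing the data, and the gene is Prupe.3G209900. Its set was picked again by annotated sums, which leaves out the member Prupe.1G540700. The annotated transcript of Prupe.1G540700 had 153 FPKM with water and 12.1 FPKM with the yeast, also past a difference of 1. The 16 higher members became 46 of 113 at a mean of 500 FPKM and 7 of 18 at 2000 FPKM, which follows from the larger and smaller sets. Rescaling moved the values by at most 0.02 on the log2 scale. The median difference stayed between -0.09 and -0.06 under all 12 alternatives. Beside 23.7% and 25.2%, the share of all FPKM in control and treated library was 24.5% and 25.9% by transcript sums, 24.1% and 25.6% over annotated identifiers, 22.4% and 23.9% for rows at 1000 FPKM in both libraries, 23.4% and 24.8% with identical rows once, 25.2% and 25.5% for annotated transcripts only, and 16.8% and 17.2% as fragments. By transcript sums 46 genes reached 1000 FPKM, 4 of them no members. The shares by transcript sums and by annotated transcripts only use sets chosen again and totals of their own. Depth was ample for the members; having 1 library per treatment, and the merging of loci and assignment of reads to assembled transcripts, limit their values.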
